A study of Mus musculus with 6 samples.

Results

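Transcripts of the nuclear subunits of respiratory complexes II to V were compared between heart muscle cells of wild-type mice and of mice lacking the transcription factor TFEB. Members were taken by name, as the succinate dehydrogenase genes (Sdha to Sdhd), every gene beginning with Uqc, Cyc1, Cycs, the numbered Cox subunit genes and every gene beginning with Atp5. The name rule found 58 of 46517 entries of the deposited table, and the 6 pseudogene entries among them, all listed at 0, were left out. That left 52 members, which are 4 of complex II, 9 subunits and 3 assembly factors of complex III, cytochrome c (Cycs), 18 of complex IV, 15 of complex V and 2 genes (Atp5s and Atp5sl) that carry the Atp5 name without being stable subunits. Cox7b2 and Cox8c, a subunit 7b paralog and the testis isoform of subunit 8, were listed at 0 in all 6 libraries, so 50 members could be tested, and 48 had a mean of at least 5 CPM.

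Adult cardiomyocytes were isolated from hearts of C57BL/6 mice aged 3 months, with 3 wild-type (WT) and 3 TFEB-/- libraries. How the Tfeb gene was deleted, and in which cells, is not given in the sources used here. Nor is it given that the libraries of a group come from different animals, so p-values measure only the spread between these libraries, which may be technical. The authors deposited whole-number CPM, a unit in which every library is brought to the same sum. They are not known to be scaled by transcript length, so a level is compared between genes only with a ratio per length beside it. The sequencing depth of each library is unknown.

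The respiratory chain of the inner mitochondrial membrane passes electrons from nutrients to oxygen and pumps protons as it does so. Complex II takes electrons from succinate, complex III hands them to the small carrier cytochrome c, complex IV (cytochrome c oxidase) passes them to oxygen, and complex V (ATP synthase) uses the proton gradient to make ATP. Heart muscle is densely packed with mitochondria, and several complex IV subunits exist as a heart and muscle isoform and a ubiquitous isoform, encoded by separate genes. Cytochrome b of complex III, the catalytic core of complex IV and part of the membrane sector of complex V are encoded by the mitochondrial genome itself. TFEB is best known as an activator of genes of lysosomes and autophagy.

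Tfeb stood at 17, 30 and 23 CPM with the gene intact and at 6, 5 and 7 CPM in TFEB-/-, so the labels and the targeted transcript go the same way (log2 fold change −1.85 with an SE of 0.24, adjusted p = 0.0267 by limma over 12437 tested genes). Transcripts of the mitochondrial genome took 30.7, 33.9 and 44.6% of the wild-type libraries and 22.2, 30.3 and 25.3% of the TFEB-/- libraries (means 36.4 ± 7.28% and 25.9 ± 4.06%, SD, n = 3, exact two-sided permutation p = 0.1, the smallest that 3 against 3 allow). Because every library sums to the same total, this share sets the scale of all nuclear genes. Over all tested genes the log2 fold change had a median of 0.24 as deposited and 0.02 after CPM were recomputed without mitochondrial transcripts. Both scales are given below, and whether groups overlap refers to deposited CPM where no scale is named. The libraries detected 12070 to 12664 genes at 1 CPM or more. Cardiomyocyte markers such as Myh6 summed to 57653 to 77426 CPM in wild type and 69055 to 88177 CPM in TFEB-/-, with 0 of 10 past the threshold. Macrophage markers summed to 19 to 28 CPM in wild type and 39 to 48 CPM in TFEB-/-, with Ptprc at 0 and 0 of 7 tested markers past the threshold. Smooth muscle and pericyte markers summed to 357 to 448 and 525 to 544 CPM (0 of 8 past the threshold). The sum was carried by Acta2, at 66, 118 and 70 CPM against 161, 233 and 185 CPM, and Abcc9, at 203, 125 and 135 CPM against 247, 172 and 197 CPM. Of the 8 markers 4 had positive and 4 negative log2 fold changes (median −0.03), with Rgs5, Pdgfrb, Kcnj8 and Myh11 negative. Endothelial markers summed to 408 to 488 and 364 to 435 CPM (0 of 10 as deposited, and 1 without mitochondrial transcripts, Cldn5, as lower) and fibroblast markers to 102 to 125 and 117 to 157 CPM. Of the 8 fibroblast markers 1 passed, Pdgfra, which stood at 2 CPM throughout the wild type and at 3 CPM throughout TFEB-/-, a step of the rounding. Red blood cell markers summed to 5 to 35 CPM in wild type, where 1 library held the most, and to 6 to 10 CPM in TFEB-/-, with Alas2 at 0. What part these shares have in the results was not tested. In samples of many cells, fewer cells of a type and less RNA per cell cannot be told apart.

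No nuclear subunit of complexes II to V passed the test in either direction. By limma with Benjamini-Hochberg adjustment over all tested genes, 0 of 50 members were higher, where 3.92% of all tested genes were, and 0 of 50 were lower, where 0.523% of all tested genes were. The smallest adjusted p was 0.0951, for Cox8a. At an unadjusted p under 0.05 stood 7 of 50 members, against 23.3% of all tested genes. Log2 fold changes of the members ran from −0.53 to 0.55 with a median of 0.14. Of the 50, 37 were positive and 13 negative, and 12 lay above the median of all genes. Among all 12437 tested genes 9353 were positive and 3084 negative. Without mitochondrial transcripts the median of the members was −0.08, with 13 positive and 37 negative. All tested genes divided into 6499 positive and 5938 negative on that scale. Again 0 members passed the threshold in either direction, against 3.70% of all tested genes higher and 1.53% lower. The smallest adjusted p by limma there were 0.0612 for Atp5s, 0.0650 for Atp5f1 and 0.0653 for Atp5g3, all lower. Among the higher members the smallest was 0.123, for Cox7a2l. Scaling each library by its median ratio gave a median of −0.10 and 0 members past the threshold (3.87% of all tested genes higher and 1.61% lower). The sign of the fold change differed between the deposited scale and that without mitochondrial transcripts for 24 of 50 members and was the same for 26.

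The level of the 52 members was also summed in each library. The sum was 34509, 37554 and 28102 CPM in wild type (33388 ± 4825, SD, n = 3) and 37707, 32910 and 36779 CPM in TFEB-/- (35799 ± 2544), with the groups overlapping. Out of a total without mitochondrial transcripts it was 49846, 56846 and 50786 in wild type (52492 ± 3799) and 48503, 47222 and 49249 in TFEB-/- (48325 ± 1025). On that scale every TFEB-/- library lay below every wild-type library. So it was for the summed endothelial markers (618 to 808 and 468 to 582) and the regulators listed below (1010 to 1145 and 819 to 949). The sums of the nuclear assembly factor lists and of cardiomyocyte, fibroblast and red blood cell markers overlapped. Those of macrophage and of smooth muscle and pericyte markers lay above wild type. WT 3, the library with the highest mitochondrial share, alone held the lowest deposited value in 38 of the 48 members with a mean of at least 5 CPM. Without WT 3 the median log2 fold change of the members was 0.02. TFEB-/- 1, with the lowest mitochondrial share, held the highest value in 23 members and WT 2 in 20. Among the TFEB-/- libraries the order of the sums was the reverse of the order of the mitochondrial shares. In wild type, WT 3 had the highest share and the lowest sum. WT 1 and WT 2 went the other way, since WT 1 had both the lower share (30.7 against 33.9%) and the lower sum. The part of the share in the differences was not tested beyond the rescaling above.

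**Figure D1:**
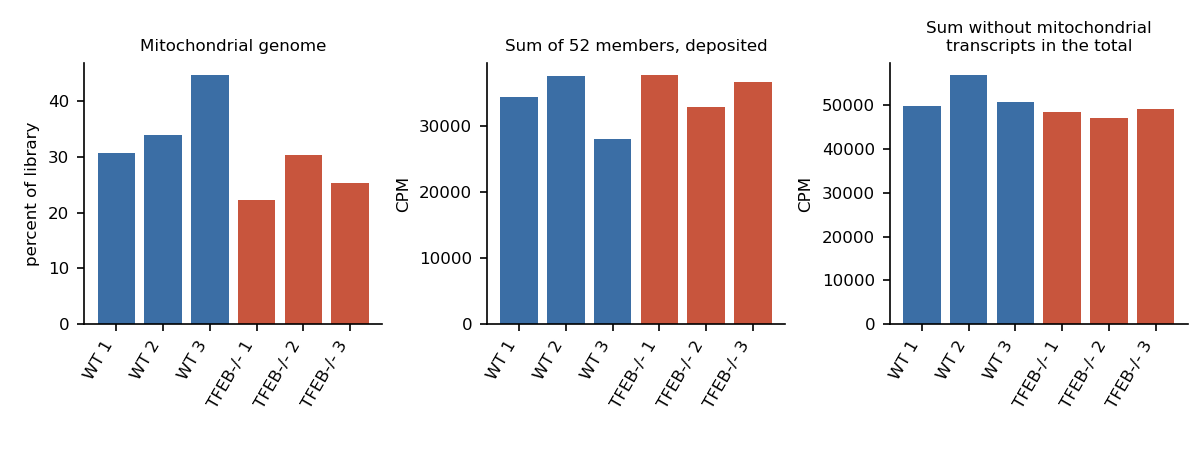
Mitochondrial genome share (percent of library), summed CPM of the 52 members, and the same sum out of a total without mitochondrial transcripts (CPM), 1 bar per library. The deposited sums overlap (28102 to 37554 in wild type, 32910 to 37707 in TFEB-/-), and the recomputed sums do not (49846 to 56846 and 47222 to 49249).

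**Figure D2:**
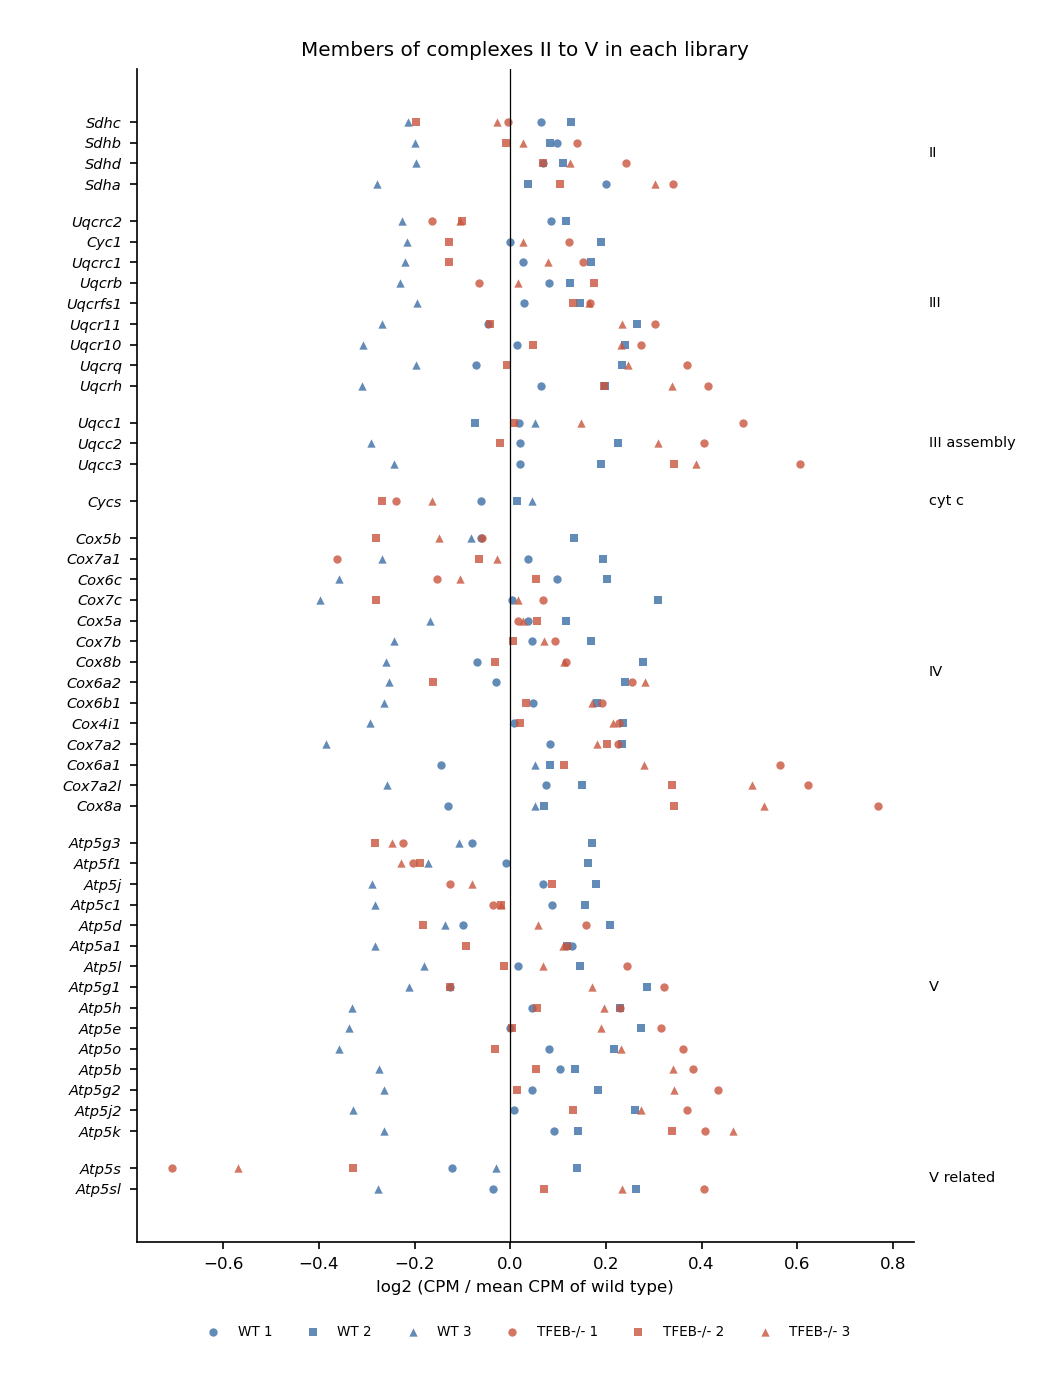
Each of the 48 members with a mean of at least 5 CPM, as log2 of its deposited CPM over its wild-type mean, grouped by complex, with 1 symbol per library. The WT 3 triangles are the lowest of the 6 in 38 members, and points of both genotypes are mixed in most rows.

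On the deposited scale the groups overlapped for most members. Every TFEB-/- library was above every wild-type library for 5 of 50 members (Cox6a1, Atp5k, Uqcc3, Cox7a2l and Cox8a). This was a smaller share than the 21.2% of all tested genes. Every TFEB-/- library was below every wild-type library for 4 of 50 members (Atp5s, Atp5g3, Cycs and Atp5f1). That was a larger share than the 2.28% of all tested genes. Without mitochondrial transcripts the counts were 3 above (Atp5k, Uqcc3 and Cox7a2l; 14.2% of all tested genes) and 16 below (16.5% of all tested genes). The 16 were Sdhb, Sdhc, Uqcrc1, Uqcrc2, Cyc1, Cycs, Cox5b, Cox6b2, Cox7a1, Cox7b, Cox7c, Atp5a1, Atp5c1, Atp5g3, Atp5f1 and Atp5s. Atp5k, Uqcc3 and Cox7a2l above, and Cycs, Atp5g3, Atp5f1 and Atp5s below, were separated on both scales.

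Complex II, the succinate dehydrogenase that also works in the citric acid cycle, showed no member past the threshold. Its 4 log2 fold changes ran from −0.07 to 0.26 with a median of 0.10, and from −0.29 to 0.04 with a median of −0.12 without mitochondrial transcripts. Sdha, the flavoprotein that oxidises succinate (GRCm38 chromosome 13, 74322254 to 74350280, minus strand), stood at 1196, 1068 and 858 CPM in wild type and 1317, 1119 and 1283 CPM in TFEB-/-. The lowest TFEB-/- value lay within the wild-type range (log2 fold change 0.26 with an SE of 0.15, adjusted p = 0.331 by limma). Sdhc, a membrane anchor, was at 489, 511 and 403 CPM against 466, 408 and 459 CPM, with the groups intermixed (log2 fold change −0.07 with an SE of 0.12, adjusted p = 0.730). Summed over the 4 genes, complex II stood at 4212, 4264 and 4106 CPM in wild type, out of a total without mitochondrial transcripts, and at 3982, 3880 and 3957 CPM in TFEB-/-. The sums of TFEB-/- all lay below those of wild type on that scale. This was not particular to complex II. On the same scale the sums of complex III were 7222 to 8395 in wild type and 7014 to 7108 in TFEB-/-. Those of complex IV were 11664 to 13946 and 11124 to 11650, and those of complex V 26098 to 29519 and 24380 to 25896. As deposited, the sums of complex II were 2916, 2817 and 2272 against 3096, 2704 and 2955 CPM and overlapped.

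Complex III, which oxidises ubiquinol, had 8 positive and 1 negative log2 fold changes among its 9 subunits (median 0.16) and 1 positive and 8 negative without mitochondrial transcripts (median −0.06). Cyc1, the haem-carrying cytochrome c1, stood at 795, 907 and 685 CPM in wild type and 867, 728 and 811 CPM in TFEB-/-, with the groups intermixed (log2 fold change 0.02 with an SE of 0.13, adjusted p = 0.989 by limma). Uqcrh, the hinge protein beside cytochrome c1, was at 545, 598 and 420 CPM against 694, 597 and 659 CPM. TFEB-/- 2 lay just below WT 2, so the groups overlapped (log2 fold change 0.33 with an SE of 0.15, adjusted p = 0.256). Uqcrc2, a core protein of the matrix side, was at 873, 892 and 703 CPM against 734, 767 and 765 CPM, with WT 3 below all TFEB-/- libraries and the other 2 above them (log2 fold change −0.12 with an SE of 0.11, adjusted p = 0.525). The remaining 6 subunits ran from 0.04 to 0.21 in log2 fold change, none past the threshold.

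Of the assembly factors of complex III, Uqcc1 and Uqcc2 overlapped between groups and Uqcc3 did not. Uqcc3 (chromosome 19, 8880014 to 8880923, minus strand), which acts with the newly made cytochrome b, stood at 24, 27 and 20 CPM in wild type and 36, 30 and 31 CPM in TFEB-/-. Each TFEB-/- library was above the highest wild-type library (log2 fold change 0.45 with an SE of 0.14, adjusted p = 0.153 by limma), also without mitochondrial transcripts, where the log2 fold change was 0.23. The 250 bases before its RefSeq start (chr19:8880934-8881183, minus strand, GRCm38.p6) are shown because they hold the 6-letter core bound by TFEB, CACGTG, and the motif AAGGTCA of estrogen-related receptors, both in capitals.
Uqcc3: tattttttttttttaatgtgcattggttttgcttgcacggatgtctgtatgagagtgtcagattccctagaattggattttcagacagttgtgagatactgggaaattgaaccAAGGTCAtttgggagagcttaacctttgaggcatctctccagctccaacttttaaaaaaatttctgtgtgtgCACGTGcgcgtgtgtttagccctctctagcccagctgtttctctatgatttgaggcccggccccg

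Cytochrome c, the carrier between complexes III and IV, was separated between genotypes on both scales. Cycs (chromosome 6, 50562563 to 50566538, minus strand) stood at 172, 181 and 185 CPM in wild type (179 ± 6.66, SD, n = 3) and 152, 149 and 160 CPM in TFEB-/- (154 ± 5.69). All TFEB-/- libraries were below all wild-type libraries on both scales, at a log2 fold change of −0.22 with an SE of 0.055 (adjusted p = 0.102 by limma) as deposited and −0.45 without mitochondrial transcripts. Of its transcript stretches of 31 bases, 29.2% also occur in transcripts of other genes, so the value per gene is less certain than for a gene with none. Its upstream window (chr6:50566570-50566819, minus strand, GRCm38.p6) holds the motif of the respiratory gene regulator NRF-1, GCGCATGCG, on the opposite strand, in capitals.
Cycs: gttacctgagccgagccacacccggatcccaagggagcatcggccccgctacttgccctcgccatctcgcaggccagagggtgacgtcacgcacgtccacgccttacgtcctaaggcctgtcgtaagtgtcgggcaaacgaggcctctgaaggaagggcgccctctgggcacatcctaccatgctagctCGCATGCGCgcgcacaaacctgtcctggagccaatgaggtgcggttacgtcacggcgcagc

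Complex IV members had a median log2 fold change of 0.11, or −0.11 without mitochondrial transcripts, with 11 positive and 5 negative among 16 tested and 4 positive and 12 negative on the second scale. Cox4i1, the ubiquitous form of the regulatory subunit 4, stood at 1410, 1652 and 1145 CPM in wild type and 1641, 1422 and 1627 CPM in TFEB-/-. The groups overlapped (log2 fold change 0.17 with an SE of 0.16, adjusted p = 0.519 by limma). Its lung isoform Cox4i2 was at 2 CPM in every library but TFEB-/- 3, where it was at 3 CPM. Cox5b, a zinc-binding subunit without a second isoform, was at 559, 640 and 551 CPM against 560, 480 and 526 CPM. Only TFEB-/- 1 reached into the wild-type range as deposited (log2 fold change −0.16 with an SE of 0.094, adjusted p = 0.347). The other subunits with a single gene, Cox5a, Cox6c and Cox7c, had log2 fold changes from −0.05 to 0.04. Cox6b1 was at 626, 686 and 504 CPM against 691, 619 and 681 CPM, and its testis isoform Cox6b2 at 1 CPM in every library but TFEB-/- 2, where it was listed at 0. Cox7b was at 630, 686 and 516 CPM against 652, 613 and 641 CPM. Both genes overlapped between groups as deposited, and Cox7b lay below wild type in every TFEB-/- library without mitochondrial transcripts.

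Cox7a2l, a relative of subunit 7a, was separated between genotypes on both scales. Cox7a2l (chromosome 17, 83501918 to 83517330, minus strand) stood at 204, 215 and 162 CPM in wild type and 298, 245 and 275 CPM in TFEB-/-. The lowest TFEB-/- library lay above the highest wild-type library. The log2 fold change was 0.50 with an SE of 0.14 (adjusted p = 0.129 by limma) as deposited and 0.27 without mitochondrial transcripts. Of its stretches of 31 bases, 16.6% occur in other genes, among them Gm6969 at 0, 16 and 13 CPM in wild type and 0, 19 and 0 CPM in TFEB-/-.

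The heart and ubiquitous isoforms of complex IV were compared as ratios within a library, which do not depend on the library total. The 3 ubiquitous genes with a heart partner (Cox6a1, Cox7a2 and Cox8a) had log2 fold changes of 0.32, 0.23 and 0.55 as deposited. Their heart partners (Cox6a2, Cox7a1 and Cox8b) had 0.14, −0.14 and 0.08, where the median of all tested genes was 0.24. Without mitochondrial transcripts the ubiquitous genes were at 0.095, 0.0002 and 0.32 and the heart partners at −0.087, −0.36 and −0.14. The median of all tested genes was then 0.02. The deposited values rested on single libraries in several cases. Without WT 3 the log2 fold change was 0.045 for Cox7a2, 0.019 for Cox6a2, −0.27 for Cox7a1 and −0.038 for Cox8b, without WT 2 it was −0.036 for Cox7a1, and without TFEB-/- 1 it was 0.20 for Cox6a1 and −0.034 for Cox7a1. In wild type and TFEB-/- alike, the heart isoform was the higher of each pair, in CPM and per length. Per length the ratio over the 6 libraries was 18.8 to 26.05 for Cox6a2 to Cox6a1, 2.30 to 3.75 for Cox7a1 to Cox7a2 and 6.17 to 11.2 for Cox8b to Cox8a.

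For subunit 8, the heart isoform was lower relative to the ubiquitous isoform in each TFEB-/- library than in any wild-type library. Cox8a (chromosome 19, 7215153 to 7217616, minus strand) stood at 67, 77 and 76 CPM in wild type and 125, 93 and 106 CPM in TFEB-/-. All 3 TFEB-/- libraries were above wild type as deposited (log2 fold change 0.55 with an SE of 0.13, adjusted p = 0.0951 by limma). Without mitochondrial transcripts the log2 fold change was 0.32 and the groups overlapped. Cox8b (chromosome 7, 140898945 to 140900446, minus strand) was at 444, 565 and 389 CPM against 505, 456 and 504 CPM, with the groups intermixed. The ratio of Cox8b to Cox8a was 6.63, 7.34 and 5.12 in wild type (6.36 ± 1.13, SD, n = 3) and 4.04, 4.90 and 4.75 in TFEB-/- (4.57 ± 0.46). The log2 difference was −0.46 with an exact two-sided permutation p of 0.1, adjusted to 0.233 over the 7 pairs tested. Neither gene shares a stretch of 31 bases with another transcript. The upstream windows of the pair, Cox8a at chr19:7217617-7217866 and Cox8b at chr7:140900447-140900696, both on the minus strand of GRCm38.p6, are shown because this ratio did not overlap between groups. Neither window holds any of the motifs searched, so no letter is in capitals.
Cox8a: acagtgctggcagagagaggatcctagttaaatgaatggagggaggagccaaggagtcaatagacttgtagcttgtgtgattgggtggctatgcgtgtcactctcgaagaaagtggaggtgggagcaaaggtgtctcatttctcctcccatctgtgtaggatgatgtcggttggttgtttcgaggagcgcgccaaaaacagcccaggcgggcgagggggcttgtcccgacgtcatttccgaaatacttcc
Cox8b: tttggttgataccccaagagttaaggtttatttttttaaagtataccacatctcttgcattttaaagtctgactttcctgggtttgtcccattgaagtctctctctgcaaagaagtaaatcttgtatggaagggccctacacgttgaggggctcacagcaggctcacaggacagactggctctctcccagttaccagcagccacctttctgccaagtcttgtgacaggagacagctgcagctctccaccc

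For subunit 7a the ratio also did not overlap between groups. Cox7a1, the heart isoform, stood at 726, 809 and 587 CPM in wild type and 550, 676 and 694 CPM in TFEB-/-, and Cox7a2 at 325, 361 and 235 CPM against 359, 353 and 348 CPM. Each gene alone overlapped as deposited, and Cox7a1 lay below wild type in every TFEB-/- library without mitochondrial transcripts. Their ratio was 2.23, 2.24 and 2.50 in wild type (2.32 ± 0.15) and 1.53, 1.92 and 1.99 in TFEB-/- (1.81 ± 0.25), a log2 difference of −0.36 (exact permutation p = 0.1, adjusted 0.233). For subunit 6a the ratios did overlap. Cox6a2 was at 1235, 1489 and 1058 CPM against 1503, 1127 and 1532 CPM, and Cox6a1 at 41, 48 and 47 CPM against 67, 49 and 55 CPM. Their ratio was 30.1, 31.02 and 22.5 against 22.4, 23.0 and 27.9, a log2 difference of −0.18 (exact permutation p = 0.3, adjusted 0.35). The paralogs Cox4i2 and Cox6b2 were too low, at 0 to 3 CPM, for their ratios to Cox4i1 and Cox6b1 to be read (log2 differences −0.01 and −0.67, exact permutation p = 0.8 and 0.2, adjusted 0.8 and 0.35). With 3 against 3 libraries no single ratio could have reached the threshold of 0.05.

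**Figure D3:**
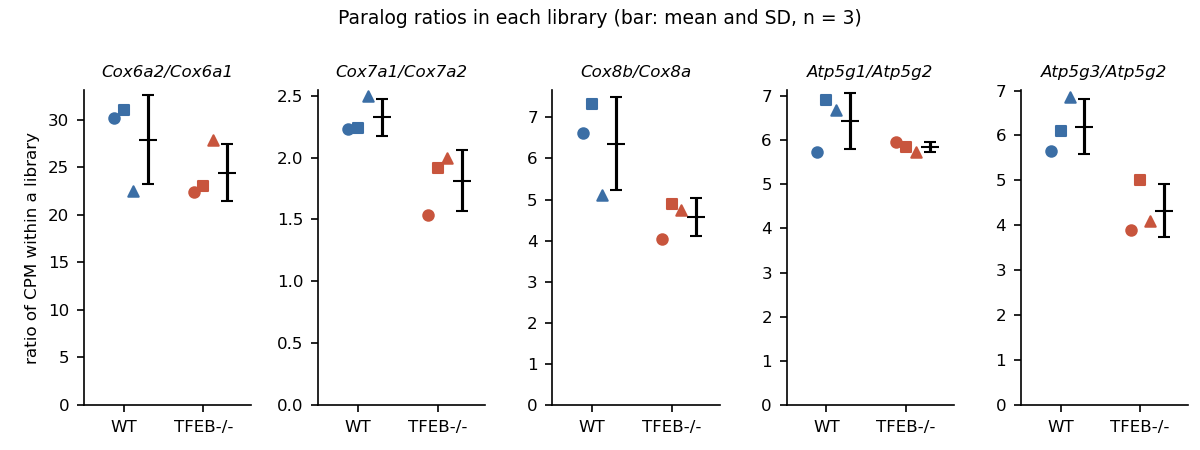
Ratio of CPM of 5 paralog pairs within each library (vertical axes from 0), by genotype, with the mean and SD of 3 libraries as bars. The ratios of Cox7a1 to Cox7a2, Cox8b to Cox8a and Atp5g3 to Atp5g2 in TFEB-/- lie below every wild-type value, while Cox6a2 to Cox6a1 and Atp5g1 to Atp5g2 overlap.

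Complex V had 11 positive and 4 negative log2 fold changes (median 0.14), and 4 positive and 11 negative without mitochondrial transcripts (median −0.09). As deposited, the groups overlapped in all 5 genes of the catalytic F1 head, and without mitochondrial transcripts Atp5a1 and Atp5c1 (subunits alpha and gamma) lay below wild type in every TFEB-/- library. Atp5b, the F1 beta subunit that carries the active sites, stood at 5081, 5194 and 3909 CPM in wild type and 6166, 4911 and 5985 CPM in TFEB-/- (log2 fold change 0.27 with an SE of 0.16, adjusted p = 0.347 by limma). The other 4 F1 genes had log2 fold changes from −0.01 to 0.19.

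In the peripheral stalk, which holds the head in place, Atp5f1 (subunit b, chromosome 3, 105942698 to 105960099, minus strand) stood at 894, 1007 and 798 CPM in wild type and 781, 789 and 768 CPM in TFEB-/-. Every TFEB-/- library was below every wild-type library on both scales (log2 fold change −0.20 with an SE of 0.097, adjusted p = 0.268 by limma as deposited). Without mitochondrial transcripts the log2 fold change was −0.43 (adjusted p = 0.0650 by limma). The stalk genes Atp5h, Atp5j and Atp5o overlapped between groups, with log2 fold changes from −0.03 to 0.21. In the membrane sector, Atp5k (subunit e, needed for dimers of the complex; chromosome 5, 108433244 to 108434448, minus strand) was at 311, 322 and 243 CPM against 387, 369 and 403 CPM. All TFEB-/- libraries were above wild type on both scales (log2 fold change 0.41 with an SE of 0.13, adjusted p = 0.150 as deposited, and 0.19 in log2 without mitochondrial transcripts). Its neighbours Atp5j2 and Atp5l, subunits f and g, overlapped, at 0.28 and 0.11 in log2 fold change.

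The c ring, the rotor turned by protons, is encoded by 3 genes whose mature proteins are the same, and their values did not share a direction. Atp5g1 stood at 1128, 1500 and 1063 CPM in wild type and 1538, 1128 and 1385 CPM in TFEB-/-, with the groups intermixed (log2 fold change 0.14 with an SE of 0.19, adjusted p = 0.652 by limma). Atp5g2 was at 197, 217 and 159 CPM against 258, 193 and 242 CPM, also overlapping (log2 fold change 0.27 with an SE of 0.17, adjusted p = 0.371). Atp5g3 (chromosome 2, 73908447 to 73911326, minus strand) was at 1112, 1322 and 1090 CPM against 1005, 966 and 989 CPM. It was the c-ring gene without overlap, below wild type in all 3 TFEB-/- libraries (log2 fold change −0.25 with an SE of 0.092, adjusted p = 0.203), and its log2 fold change was −0.47 without mitochondrial transcripts. Within libraries, the ratio of Atp5g3 to Atp5g2 was 5.64, 6.09 and 6.86 in wild type (6.20 ± 0.61, SD, n = 3) and 3.90, 5.01 and 4.09 in TFEB-/- (4.33 ± 0.59), a log2 difference of −0.52 (exact permutation p = 0.1, adjusted 0.233). The ratio of Atp5g1 to Atp5g2 was 5.73, 6.91 and 6.69 against 5.96, 5.84 and 5.72 and overlapped (log2 difference −0.14, exact permutation p = 0.3, adjusted 0.35). Per length the ratio over the 6 libraries was 3.18 to 5.59 for Atp5g3 to Atp5g2 and only 1.25 to 1.51 for Atp5g1 to Atp5g2. Atp5g2 shares 40.2% of its stretches of 31 bases with other genes, among them Gm10175, at 59, 76 and 46 CPM in wild type and 82, 75 and 74 CPM in TFEB-/-. With Gm10175 added to Atp5g2, the log2 difference of the Atp5g3 ratio was −0.55. Atp5g3 shares none.

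The sequences before the RefSeq starts of the 3 c-ring genes differ in the motifs they hold, and are shown for that reason, with matches in capitals. The window of Atp5g3 (chr2:73911327-73911576, minus strand, GRCm38.p6) holds CACGTG and, on the opposite strand, AAGGTCA. Of Atp5g1 (chr11:96075658-96075687) the 30 bases around a CACGTG, and of Atp5g2 (chr15:102671071-102671100) the 30 bases around an NRF-1 motif that reads the same on both strands, are given, both on the minus strand. The RefSeq start of Atp5g2 lies inside its GENCODE span (chromosome 15, 102662864 to 102672352), so this stretch is within the gene and not upstream of it. Of the 220 stretches of 31 bases in the full window of Atp5g2, 50 occur in its own annotated transcripts, against 9 for Atp5g1 and 0 for Atp5g3.
Atp5g3: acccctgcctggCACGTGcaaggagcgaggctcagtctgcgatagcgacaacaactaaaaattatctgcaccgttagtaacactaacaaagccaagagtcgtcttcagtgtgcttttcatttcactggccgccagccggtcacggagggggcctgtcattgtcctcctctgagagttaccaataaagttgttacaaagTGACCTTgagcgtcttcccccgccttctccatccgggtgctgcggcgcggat
Atp5g1: agggactccgaaCACGTGggtgggggagct
Atp5g2: tggctccggccGCGCATGCGCagagccttc

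Across the members, promoter windows from RefSeq (GRCm38.p6) were found for 38 of 52, and not for Sdhc, Uqcrc2, Cyc1, Uqcrb, Uqcrq, Cox4i1, Cox4i2, Cox6a2, Cox6c, Cox8c, Atp5a1, Atp5f1, Atp5s and Atp5sl. Each window of 250 bases before the start was searched on both strands, beside the windows of 27025 genes. CACGTG was found in 4 of 38 members (10.5%, Uqcc3, Atp5g1, Atp5g3 and Atp5l) and in 6.86% of all genes. The longer TCACGTGA, which contains it, was found in 0 of 38 and in 0.907% of all genes. AAGGTCA was found in 3 members (7.89%, Uqcc3, Atp5g3 and Atp5l) and in 4.70% of all genes. GCGCATGCG was found in 5 members (13.2%, Cycs, Cox6a1, Atp5g2, Atp5k and Atp5l) and in 1.64% of all genes. CCGGAAGT, bound by ETS factors such as GABP, was found in 3 (7.89% against 3.23%) and AAGATGGCG, bound by YY1, in 1 (2.63% against 0.71%). TAAAAATA, a core of MEF2 sites, was found in 0 of 38 and in 2.84% of all genes. The 4 members with CACGTG did not share a direction. Uqcc3 was without overlap above and Atp5g3 without overlap below wild type, and Atp5g1 and Atp5l overlapped. Of the 5 with the NRF-1 motif, Atp5k and Cox6a1 lay above, Cycs below and Atp5g2 and Atp5l overlapped. Not every window lies outside the transcripts of its gene. In Atp5j2, an Atp5d window and the Atp5j window with the YY1 motif, all 220 stretches of 31 bases occur in the gene's own transcripts. A match is a description of the letters, not of binding.

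Atp5s and Atp5sl, which carry the Atp5 name, differed from each other. Atp5s is not a stable part of the complex, and Atp5sl, annotated as Dmac2, was named after Atp5s and is not a subunit. Atp5s, known as factor B and thought to couple the sectors of complex V, stood at 15, 18 and 16 CPM in wild type and 10, 13 and 11 CPM in TFEB-/-. All TFEB-/- libraries were below wild type on both scales (log2 fold change −0.51 with an SE of 0.13, adjusted p = 0.0997 by limma), at levels where rounding is a visible part of the value. Atp5sl was at 39, 48 and 33 CPM against 53, 42 and 47 CPM and overlapped.

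**Figure D4:**
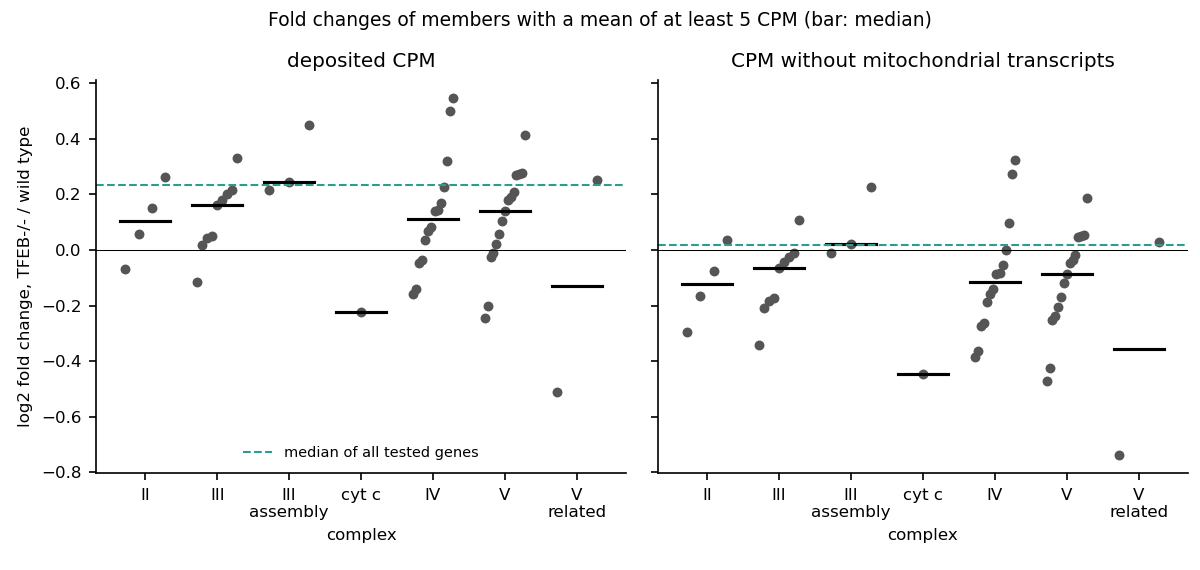
Log2 fold change of TFEB-/- over wild type for the 48 members with a mean of at least 5 CPM, by complex, as deposited (left) and without mitochondrial transcripts (right), with a bar at the median of each group and a dashed line at the median of all tested genes (0.24 and 0.02). Cox8a at 0.55 is the highest point on the left and Atp5s at −0.51 the lowest, and on the right most points lie below 0.

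Members were called in 2 of 15 alternatives, 1 of scaling and 1 of library weights. Quantile normalization of the log2 values called 1 member higher, Cox7a2l (adjusted p = 0.0443 by limma, 0.0443 to 0.348 over its 15 alternatives), where 3.19% of all tested genes were higher. It called 1 member lower, Sdhc (adjusted p = 0.0439, 0.0439 to 1 over its alternatives), where 1.38% were lower. Limma's array weights, which let libraries count unequally, called 3 members higher (Cox7a2l, Cox8a and Atp5k; 18.0% of all tested genes) and 4 lower (Cycs, Atp5g3, Atp5f1 and Atp5s; 2.72% of all tested genes). The weights were 3.41 for WT 2 and 3.66 for TFEB-/- 3 and 0.422 to 0.733 for the other 4 libraries, so this fit rested mainly on 1 library per genotype.

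Genes that surround the complexes were read from lists of assembly factors, mitochondrially encoded subunits and regulators. Of 24 tested assembly factors of complex IV (Pet117 was at 0), 1 passed as higher and 0 as lower, where 3.92% of all tested genes were higher and 0.523% lower, with a list median of 0.18 against 0.24 for all tested genes. It was Cox19, a factor of copper delivery to the oxidase, at 36, 39 and 31 CPM in wild type and 78, 81 and 75 CPM in TFEB-/-. The groups were far apart (log2 fold change 1.14 with an SE of 0.099, adjusted p = 0.00668 by limma, and 0.92 in log2 without mitochondrial transcripts). Of 13 assembly and related factors of complexes II, III and V, 0 passed in either direction (median 0.13). Usmg5, a small protein of ATP synthase dimers with the highest CPM of the list, was at 322, 347 and 246 CPM against 226, 295 and 225 CPM and overlapped.

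The 6 mitochondrially encoded subunits of complexes III to V all had negative log2 fold changes (median −0.62), and 0 passed in either direction. mt-Co1, the catalytic subunit of complex IV and the gene of the list with the highest CPM, stood at 103264, 107216 and 141210 CPM in wild type and 75566, 106478 and 84535 CPM in TFEB-/-. TFEB-/- 2 lay within the wild-type range (log2 fold change −0.40 with an SE of 0.20, adjusted p = 0.281 by limma). Chosen after their values were seen, mt-Co3 and mt-Atp6 did not overlap. mt-Co3, a core subunit of complex IV, was at 23307, 33793 and 53686 CPM against 10220, 14505 and 16828 CPM (log2 fold change −1.36 with an SE of 0.38, adjusted p = 0.124). mt-Atp6, subunit a of complex V, was at 20342, 22526 and 38102 CPM against 11416, 17039 and 15618 CPM (log2 fold change −0.84 with an SE of 0.31, adjusted p = 0.196). The nuclear members of complexes III, IV and V had medians of 0.16, 0.11 and 0.14 as deposited, opposite in sign to that of the mitochondrial genes. All tested genes had a median of 0.24 on that scale, above these medians, so the opposite sign was not particular to the members. Without mitochondrial transcripts in the total the signs were the same (−0.06, −0.11 and −0.09, against −0.85 for the mitochondrial genes). The median of all tested genes was then 0.02.

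Of 14 transcription regulators of respiratory genes, 0 passed in either direction as deposited (median 0.02), with Perm1, a muscle regulator with the highest CPM of the list, at 405, 307 and 258 CPM against 331, 237 and 261 CPM. Without mitochondrial transcripts 1 of 14 passed as lower and 0 as higher, where 1.53% of all tested genes were lower and 3.70% higher. It was Ppargc1a, the coactivator PGC-1 alpha that raises mitochondrial gene expression, at 29, 41 and 27 CPM in wild type and 20, 21 and 23 CPM in TFEB-/-. All TFEB-/- libraries were below wild type as deposited (log2 fold change −0.57 with an SE of 0.18, adjusted p = 0.158 by limma), and without mitochondrial transcripts the log2 fold change was −0.79 (adjusted p = 0.0384, 0.0321 to 0.412 over its 15 alternatives).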

How the data were processed

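RNA of 6 cardiomyocyte libraries, 3 wild type and 3 TFEB-/-, was sequenced from TruSeq Stranded mRNA libraries, per the labels' protocols. The deposited table holds a whole-number score per gene and library that its name gives as kallisto CPM. The libraries sum to 999505 to 999655, so the values are not read counts, and depth and counting error are unknown. The aligners STAR and HISAT2, the quantifiers kallisto, Salmon and RSEM, and StringTie, DESeq2, edgeR and the build GRCm38 are named in the submitters' processing notes, without a statement of which made the table. Whether CPM were scaled by length is not stated. Names turned into dates (26) were restored through their identifiers and 303 missing names replaced by them. Genes reaching 1 CPM in 3 or more libraries (12437) were fitted with limma 3.58.1 (R 4.3.3, statmod 1.5.0) on log2(CPM + 0.5), genotype as the only term, with a mean-variance trend. Fold changes are on that scale, which understates the change of low genes. Two-sided p-values were Benjamini-Hochberg adjusted over all tested genes at a threshold of 0.05. The fit was checked on simulated data. Ratios of 7 paralog pairs were compared by exact two-sided permutation; the pair Cox7b2 and Cox7b holds a gene at 0.

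The members, lists and tests were chosen with earlier results of these data known. Values of every library are given for members past the threshold, members of paralog pairs and, per complex, the most abundant member and those with the largest positive and negative fold change at a mean of at least 5 CPM. Of other lists, up to 2 genes past the threshold per direction, or the most abundant, are named. Complex III was taken here without its assembly factors and complex V without Atp5s and Atp5sl. Cycs, Cox7a2l, Atp5f1, Uqcc3, Atp5s, Atp5sl, Cldn5 and the smooth muscle markers were named beyond this rule, after their values were seen. Positions are from GENCODE M21 (GRCm38). Transcript stretches of 31 bases were compared between genes. Alternatives changed the pseudocount, filter, scaling, weights, hyperparameters, block or samples. Adding Gm10175 to Atp5g2 was chosen after seeing the data. No column of values was left out.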

Additional observations from a re-analysis of the deposited data

How the results depend on the processing

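Members past the threshold numbered 0 in each direction in 13 of 15 alternatives. Quantile normalization gave 1 higher and 1 lower, and array weights 3 higher and 4 lower. The median log2 fold change of the members was 0.14 as reported, −0.098 with median-ratio scaling, −0.085 without mitochondrial transcripts, −0.054 with quantile normalization and 0.012 with array weights, and ran from 0.021 to 0.22 when each library was left out in turn. The cause was not tested beyond the shift in scale that these settings make.

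Some named members with small values turned negative, none of them past the threshold. With median-ratio scaling, CPM without mitochondrial transcripts and quantile normalization, in that order, the log2 fold change was −0.22, −0.21 and −0.18 for Cyc1, −0.070, −0.056 and −0.053 for Cox4i1, −0.032, −0.024 and −0.0078 for Cox4i2, −0.10, −0.087 and −0.087 for Cox6a2, −0.097, −0.083 and −0.012 for Cox6b1, −0.17, −0.16 and −0.11 for Cox7b, −0.16, −0.14 and −0.090 for Cox8b and −0.10, −0.086 and −0.054 for Atp5g1. Cox7a2 was at −0.014 with median-ratio scaling and −0.0011 with quantile normalization. With array weights the value was −0.11 for Cyc1, −0.051 for Cox7b, −0.094 for Cox8b and −0.048 for Atp5g1.

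When each library was left out in turn, Cyc1 ran from −0.086 (without WT 3) to 0.12 (without WT 2) and was −0.041 without TFEB-/- 1, Cox7b from −0.050 (without WT 3) to 0.16 (without WT 2) and Cox8b from −0.038 (without WT 3) to 0.23 (without WT 2). The log2 difference of the Cox4i2 to Cox4i1 ratio ran from −0.14 (without TFEB-/- 3) to 0.13 (without WT 3).

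The replicate numbers of the titles were used as a block in 1 alternative. Same-numbered libraries correlated in their deviations at 0.144, −0.0492 and 0.0883, and differently numbered ones at −0.184 to 0.104. With 3 libraries per group, these values cannot decide whether the numbers pair the libraries. With the block 0 members were higher and 0 lower, the median was 0.14, and over all genes 159 were higher and 26 lower, against 487 and 65 without it. Over all genes the counts ran from 154 to 2241 higher and 26 to 338 lower across the 15 alternatives. With 3 libraries per group and values rounded to 1 CPM, small changes and genes of a few CPM cannot be resolved.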

Other observations

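Atpif1, which encodes the inhibitor that stops ATP synthase from running backwards, was singled out after its values were seen. Its values were 74, 86 and 82 CPM in wild type (80.7 ± 6.11, SD, n = 3) and 128, 108 and 146 CPM in TFEB-/- (127 ± 19.0). All TFEB-/- libraries were above all wild-type libraries, with a log2 fold change of 0.65 with an SE of 0.13 (adjusted p = 0.0716 by limma) as deposited and 0.42 without mitochondrial transcripts. Cox17, the copper chaperone that hands copper on to the oxidase assembly factors, was likewise singled out. Its values were 92, 98 and 75 CPM in wild type (88.3 ± 11.9) and 146, 111 and 139 CPM in TFEB-/- (132 ± 18.5), again without overlap (log2 fold change 0.58 with an SE of 0.16, adjusted p = 0.120, and 0.35 in log2 without mitochondrial transcripts). Neither gene passed the threshold. In their lists, 2 of 13 factors of complexes II, III and V and 4 of 24 of complex IV were above without overlap as deposited. The share of all tested genes was 21.2%. Without mitochondrial transcripts the counts were 1 of 13 and 4 of 24, against 14.2% of all tested genes.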
